A study of Mus musculus with 15 samples.

Results

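The effect of tamoxifen that was shared by wild-type and *Mtm1*-/y muscle was examined. It was measured for each gene as the mean of 2 differences, WT + TAM minus WT and Mtm1-/y + TAM minus Mtm1-/y, and all 15 of the 15 libraries of the series entered it. Each library came from the tibialis anterior, a fast muscle of the lower leg, of a male 129Pas mouse aged 7 weeks. There were 4 untreated wild-type (WT), 4 tamoxifen-treated wild-type (WT + TAM), 4 untreated mutant (Mtm1-/y) and 3 tamoxifen-treated mutant (Mtm1-/y + TAM) mice. Mtm1-/y mice are hemizygous for a loss of *Mtm1*, which encodes the phosphoinositide phosphatase myotubularin, and serve as a model of X-linked myotubular myopathy. The 2 treated groups therefore shared the drug, and the 2 mutant groups shared the *Mtm1* mutation. The sources used here give neither the tamoxifen regimen nor what the untreated mice received.

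Tamoxifen is a selective oestrogen receptor modulator. It and its active metabolites bind the oestrogen receptors, which are ligand-dependent transcription factors, and act as agonists or antagonists depending on the tissue. Skeletal muscle fibres and their supporting cells express the oestrogen receptor gene *Esr1* in males as well as in females. Through it, hormone and drug can change the transcription of genes for metabolism, membrane and matrix.

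Total counts per library ranged from 18042558 to 45823277, and 15533 of 30672 genes had enough counts to be tested. Levels are CPM values, read counts relative to the TMM-scaled size of the library, and effects are log2 fold changes with the standard error (SE) of the fit. *Mtm1* measured 14.9 to 15.6 CPM in untreated WT, 13.5 to 17.7 in WT + TAM, 2.91 to 3.63 in Mtm1-/y and 3.04 to 3.71 in Mtm1-/y + TAM libraries, so each library matched its genotype label. All 10 skeletal muscle markers were detected in every group. WT + TAM replicate 1 and Mtm1-/y replicate 1 stood apart from their groups. Their mean Pearson correlation of log2 CPM across genes with the other libraries of their group was 0.965 each, against 0.977 to 0.989 for the other libraries. Where a call changed without these libraries, both values are given for the genes and lists described in detail.

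Few genes were called as moved by tamoxifen on average over the genotypes. With edgeR's quasi-likelihood test and Benjamini-Hochberg adjustment over all tested genes, 32 genes (percent called 0.206) had an adjusted p under 0.05 for the average effect. Of these, 27 were higher (0.174%) and 5 lower (0.0322%) with tamoxifen. A gene was said to move in both genotypes when it was called for the average and also had the same sign and an unadjusted p under 0.05 in each genotype, which held for 27 genes (percent called 0.174), 23 of them higher (0.148%) and 4 lower (0.0258%). Among all tested genes, 1031 had an unadjusted p under 0.05 for the average (6.64%), and 7508 had an average effect above 0 (48.3%). Fitted effects had the same sign in the 2 genotypes for 6717 of 15533 genes (43.2%), and their Pearson correlation across genes was 0.0243, which is a description because genes are not independent replicates. Without the 2 libraries that stood apart these values were 46.7% and 0.0515.

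**Figure D1:**
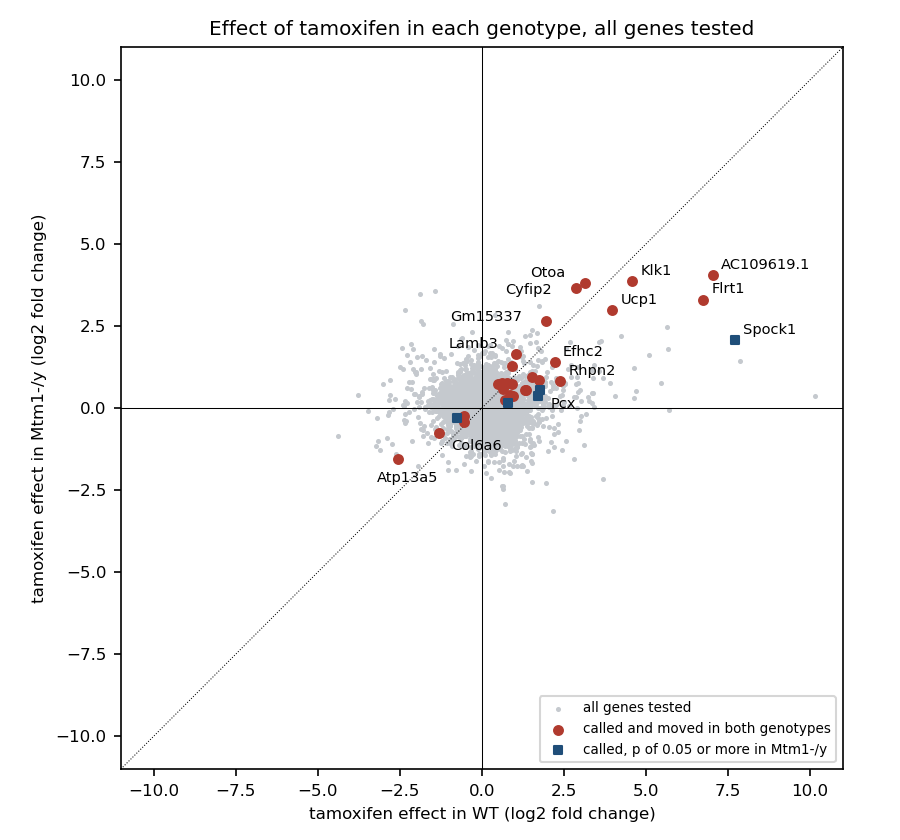
The log2 fold change with tamoxifen in WT (horizontal axis) is plotted against that in Mtm1-/y mice (vertical axis) for all 15533 genes tested, with the 27 genes that moved in both genotypes as red circles, the other 5 called genes as blue squares, and the line of equal effects dotted. The cloud of all genes shows no slope (Pearson's r 0.0243), and the 32 called genes, chosen by the average of the plotted effects, lie in the quadrants where both have the same sign.

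All 32 called genes had the same sign in the 2 genotypes, which is a description, since a call for the average favours effects of the same sign. In 25 of the 32 the fitted effect was larger in WT, and in 11 the difference between the genotypes had an unadjusted p under 0.05. No gene of the 15533 passed the adjusted threshold for that difference with edgeR (1650 had an unadjusted p under 0.05, 10.6%), whereas DESeq2 called 74. When each genotype was taken alone, 48 genes were called in WT (0.309%) and 2 in Mtm1-/y mice (0.0129%), *Lamb3* and *Cyfip2*. For 25 of the 32 called genes the treated and untreated values did not overlap in either genotype, in the direction of the call. This too is read from the values that chose the genes. Over all tested genes the same was seen for 35 above (0.225%) and 12 below (0.0773%). On the edge of the threshold, *9430073C21Rik* (adjusted p 0.0485) and *Ucp1* (0.0496) were just inside, and *Ccdc125* (log2 fold change 1.70, adjusted p 0.0602) and *Pdgfra* (0.73, adjusted p 0.0627) just outside.

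**Figure D2:**
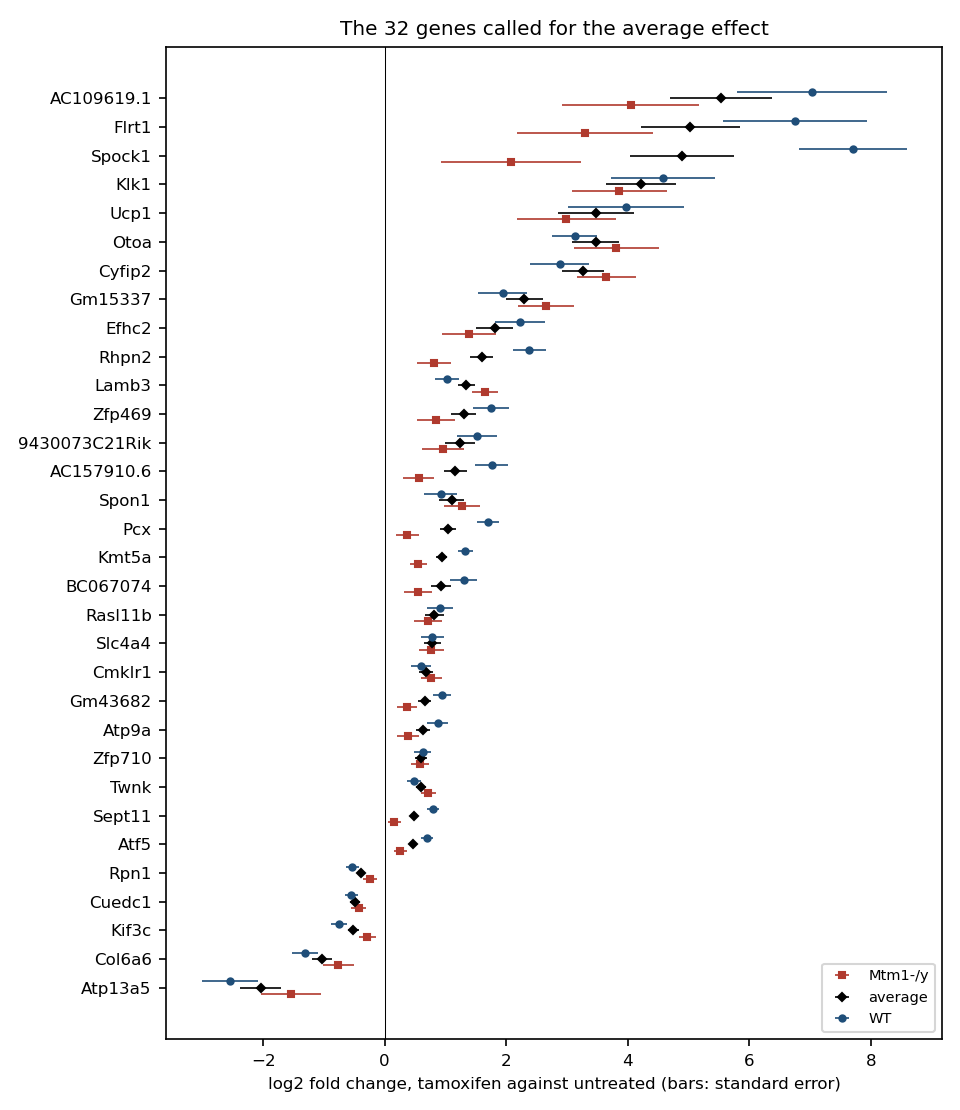
Log2 fold changes of the 32 called genes, ordered by the average effect, in WT (blue circles), in Mtm1-/y mice (red squares) and as the average of both (black diamonds), with bars for the standard error. The average runs from -2.04 for *Atp13a5* to 5.54 for *AC109619.1*, and the symbols for WT and Mtm1-/y lie on the same side of 0 for every gene, as the choice by the average favours.

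Of the called genes described below, *Twnk*, *Atf5*, *Zfp710*, *Slc4a4*, *Cmklr1*, *Atp9a*, *Rasl11b*, *Klk1*, *Otoa*, *Efhc2*, *Spock1*, *Kif3c*, *Gm43682* and *AC157910.6* fell outside the rule for named genes and were chosen after their values were seen. The call for a single gene depended on which libraries were present, and 10 genes were called in each of 15 fits that left out 1 library. These were *Cyfip2*, *Pcx*, *Twnk*, *Lamb3*, *Rhpn2*, *Otoa*, *Kmt5a*, *Sept11*, *Klk1* and *Gm15337*. The number of called genes fell to 10 without Mtm1-/y + TAM replicate 3 and rose to 71 without WT + TAM replicate 1, against 32 with all libraries. It was 13 to 21 without any 1 of WT replicates 1 to 4 or Mtm1-/y replicates 2 to 4, and 17 without Mtm1-/y + TAM replicate 2. None of the 32 genes changed sign in any of these fits.

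*Lamb3*, 1 laminin gene, and *Cyfip2*, 1 gene of the actin-regulating WAVE complex, were called, without other members of their lists. *Lamb3* (ENSMUSG00000026639, chromosome 1, 193207699 to 193343878, GRCm38) encodes the beta chain of the laminin of epithelial basement membranes. Its level was 3.12, 2.29, 2.08 and 2.58 CPM in the WT libraries and 3.84, 5.76, 5.04 and 6.1 CPM in the WT + TAM libraries. In Mtm1-/y libraries it was 1.96, 3.15, 1.94 and 2.62 CPM, and in Mtm1-/y + TAM libraries 6.25, 7.78 and 8.53 CPM. Every treated library was above every untreated library of both genotypes. The average rise was 2.53-fold (log2 1.34, SE 0.14, edgeR adjusted p 0.000762). Of 22 tested genes of a list of laminins and basement membrane components, *Lamb3* alone was called, and the median of the list was -0.05, beside -0.01 over all tested genes. The gene overlaps *G0s2* and *Hsd11b1* on the opposite strand, whose average effects were 0.07 and -0.09 on the log2 scale and were not called.

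*Cyfip2* (ENSMUSG00000020340, chromosome 11, 46193850 to 46312859) encodes a subunit of the WAVE complex, which starts branched actin networks downstream of Rac. The WT libraries had 1.13, 1.11, 1.11 and 0.675 CPM, and the WT + TAM libraries 1.84, 14.3, 7.21 and 6.29 CPM, of which WT + TAM replicate 1 was the lowest. Mtm1-/y libraries had 1.23, 2.78, 1.53 and 1.5 CPM, and Mtm1-/y + TAM libraries 18.4, 28.2 and 18.6 CPM. Treated and untreated mice did not overlap in either genotype. The average rise was 9.61-fold (log2 3.26, SE 0.35, edgeR adjusted p 0.000948), and the effect in Mtm1-/y mice minus that in WT mice was 0.78 with a 95% interval of -0.69 to 2.24. Among 11 tested genes of the WAVE complex list it was the sole call, with a list median of 0.

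*Rhpn2* rose from 1.84, 2.25, 1.77 and 1.88 CPM in WT to 5.23, 11.6, 9.39 and 14.1 CPM in WT + TAM libraries. The mutant values were 3.27, 3.55, 3.08 and 3.56 CPM untreated and 5.46, 3.95 and 8.28 CPM treated. Again no treated library overlapped the untreated ones of its genotype. The log2 fold change was 2.38 (SE 0.27) in WT and 0.81 (SE 0.28) in Mtm1-/y mice, with an average of 1.60 (adjusted p 0.00138, edgeR). The interval of the difference between the genotypes, -2.39 to -0.74, lay below 0, but that difference did not pass adjustment (edgeR adjusted p 0.3). *Sept11*, a gene of the septin cytoskeleton, was called for the average (0.48, SE 0.07, edgeR adjusted p 0.0152). Its effect was 0.80 in WT and 0.16 in Mtm1-/y mice, where the unadjusted p from edgeR was 0.164, so it did not count as moved in both. *Kif3c*, which encodes a kinesin motor subunit, was called as lower on average (-0.52, SE 0.09, edgeR adjusted p 0.031), and its unadjusted p in Mtm1-/y mice was 0.0512. That p was 0.0202 without the 2 libraries that stood apart (average -0.54, edgeR adjusted p 0.01), and *Kif3c* then counted as moved in both.

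Genes for secreted or cell-surface adhesion proteins moved in both directions. *Spon1*, the gene of the matrix protein spondin, had 5.44, 5.22, 4.2 and 5.08 CPM in untreated WT, 14.7, 9.43, 6.32 and 7.55 CPM in WT + TAM, 1.15, 2.22, 2.64 and 2.46 CPM in Mtm1-/y and 3.6, 5.22 and 6.37 CPM in Mtm1-/y + TAM libraries. The treated libraries lay above the untreated ones in each genotype, from a lower start in the mutant. Its average log2 fold change was 1.1 (SE 0.20, edgeR adjusted p 0.038). *Col6a6* encodes an alpha chain of collagen VI, a microfibrillar collagen of the muscle matrix. It fell from 8.44, 8.22, 10.8 and 10.5 CPM in WT to 4.17, 5.71, 2.77 and 2.78 CPM in WT + TAM libraries, and from 3.79, 3.91, 3.94 and 2.67 CPM in Mtm1-/y to 2.54, 2.04 and 1.81 CPM in Mtm1-/y + TAM libraries. Both genotypes showed the decrease without overlap, and untreated mutants were already near the treated WT level. The average was -1.03 (SE 0.17, edgeR adjusted p 0.0172). The neighbouring collagen VI gene *Col6a5*, 27918 bases away on the same strand, had an average log2 fold change of -1.86 (SE 0.68) that was not called (edgeR adjusted p 0.548) with all libraries. *Col6a5* was called without the 2 libraries that stood apart (-2.49, SE 0.55, edgeR adjusted p 0.0463) and moved in both.

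*Flrt1*, which encodes a leucine-rich transmembrane adhesion protein, and the antisense transcript *AC109619.1* had the highest average effects among called genes above the expression limit of the rule for named genes (a mean log2 CPM of 0), and also the most uneven ones. *Flrt1* measured 0.64, 0.79, 0.575 and 1.29 CPM in the WT mice and 3.19, 108, 139 and 111 CPM in WT + TAM libraries. It measured 0.262, 1.05, 0.794 and 1.79 CPM in Mtm1-/y and 1.33, 3.68 and 23.7 CPM in Mtm1-/y + TAM libraries. The treated and untreated mutants overlapped, and WT + TAM replicate 1 was far below the other libraries of its group. *AC109619.1* followed the same libraries, with 1.68, 28.6, 39.2 and 34.4 CPM in WT + TAM and 0.795, 2.25 and 16.1 CPM in Mtm1-/y + TAM, against at most 0.293 CPM in the WT mice and 0.807 CPM in Mtm1-/y libraries. Average log2 fold changes were 5.03 (SE 0.81, adjusted p 0.0268) for *Flrt1* and 5.54 (SE 0.84, adjusted p 0.0176) for *AC109619.1* with edgeR. The genes lie 3580 bases apart on the same strand, and both lie within *Macrod1*, which is read from the other strand and was not called (0.17, adjusted p 0.788, edgeR). *Flrt1* was called in 6 and *AC109619.1* in 8 of the 15 fits that left out a library. Without Mtm1-/y + TAM replicate 3 the averages were 4.08 and 4.53, and neither was called. With limma-voom the adjusted p was 0.474 for *Flrt1* and 0.423 for *AC109619.1*, while DESeq2 gave 1.75e-09 and 1.49e-10.

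*Twnk*, *Atf5* and *Pcx*, whose products are known to act in mitochondria or their stress response, were called, and this grouping was made after the calls were seen. *Twnk* (ENSMUSG00000025209, chromosome 19, 45005663 to 45012762) encodes Twinkle, the helicase that unwinds mitochondrial DNA for replication. Its values were 33.3, 31.6, 32.4 and 29.7 CPM in untreated WT, 31.8, 47.8, 47.4 and 49.9 CPM in WT + TAM, 23.1, 26.3, 25.8 and 26 CPM in Mtm1-/y and 39.5, 44.2 and 41.2 CPM in Mtm1-/y + TAM libraries. WT + TAM replicate 1 sat at the untreated level, and the other treated libraries were all above every untreated library. The average rise was 1.51-fold (log2 0.60, SE 0.08, edgeR adjusted p 0.00562) and the difference between the genotypes was 0.24, with an interval of -0.12 to 0.6. Without the 2 libraries that stood apart its log2 fold change was 0.61 in WT and 0.68 in Mtm1-/y mice. *Twnk* shares its start region with *Mrpl43* on the other strand, whose average effect of 0.14 was not called.

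*Atf5*, the gene of a transcription factor of the mitochondrial stress response, had 54.8, 46.9, 55.7 and 54 CPM in the WT mice and 87.3, 67.2, 90.2 and 96.2 CPM in WT + TAM libraries. Mutant values were 54.1, 50.7, 55.2 and 53.2 CPM untreated and 62.5, 59.7 and 68.9 CPM treated. Treated libraries were higher without overlap in each genotype, with an average log2 fold change of 0.47 (SE 0.07, edgeR adjusted p 0.016). *Pcx*, the gene of pyruvate carboxylase, which makes oxaloacetate in mitochondria, was called on average (1.04, SE 0.13, edgeR adjusted p 0.0016) and was the gene among those called with the smallest p for a difference between genotypes. It measured 97.9, 80.6, 73.5 and 75.5 CPM in untreated WT, 226, 317, 307 and 216 CPM in WT + TAM, 85.6, 55.1, 60.1 and 54.4 CPM in Mtm1-/y and 74.3, 71.5 and 101 CPM in Mtm1-/y + TAM libraries. In the mutant the values overlapped through Mtm1-/y replicate 1, at 85.6 CPM, and the unadjusted p was 0.0674 (edgeR). Without the 2 libraries that stood apart the mutant had 54 to 59.7 CPM untreated and 71 to 101 CPM treated, with an unadjusted p of 0.00428 (edgeR), and *Pcx* then counted as moved in both. The effect in Mtm1-/y minus that in WT mice was -1.33 (interval -1.88 to -0.78, edgeR adjusted p 0.248). In the wider lists of these pathways, none of 80 tested genes of oxidative phosphorylation and none of 25 of fatty acid oxidation were called (unadjusted p under 0.05 for 1 higher and 2 lower of the former and 0 of the latter), with medians of 0.05 and 0.03. The average was above 0 for 65 and 16 of them, and the sign was the same in both genotypes for 32 and 2. Without the 2 libraries that stood apart 72 and 21 were above 0, with medians of 0.07 and 0.11. An unadjusted p under 0.05 was then seen for 10 higher and 2 lower of the former and 1 higher of the latter.

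*Ucp1* encodes the uncoupling protein of brown and beige fat, which dissipates the mitochondrial proton gradient as heat. It rose from 0.443, 0.277, 0.177 and 0.352 CPM in WT to 16.4, 2.55, 0.82 and 1.07 CPM in WT + TAM libraries, and from 2.48, 1.17, 0.89 and 2.98 CPM in Mtm1-/y to 13.7, 12.7 and 19.4 CPM in Mtm1-/y + TAM libraries. The highest WT + TAM value was that of replicate 1, and the groups did not overlap within either genotype. The average log2 fold change was 3.48 (SE 0.63, edgeR adjusted p 0.0496). Without the 2 libraries that stood apart it was 2.60 (adjusted p 0.00409, edgeR). *Ucp1* was called in 3 of the 15 fits that left out 1 library. The summed level of 15 adipocyte markers, which include *Ucp1*, was 249 to 290 CPM in untreated WT, 252 to 270 CPM in WT + TAM replicates 2 to 4 and 606 CPM in WT + TAM replicate 1. It was 220 to 269 CPM in Mtm1-/y and 232 to 305 CPM in Mtm1-/y + TAM libraries. The sum overlapped between treated and untreated mutants, but it is weighted to the most abundant markers. Over the 14 tested markers, 11 had an average effect above 0, and 5 of these, *Ucp1* among them, an unadjusted p under 0.05. The median was 1.27 (1.06 in WT and 1.12 in Mtm1-/y mice), and 0.28 without the 2 libraries that stood apart, when 13 were above 0 and 2 had an unadjusted p under 0.05. *Plin1*, the perilipin gene of fat droplets, had an average of 1.83 that was not called (edgeR adjusted p 0.646). The part of fat cells in the *Ucp1* result was not tested, and in bulk muscle more cells of a type and more RNA per cell cannot be told apart.

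Chromatin and transcription genes included the gene with the smallest p of all, *Kmt5a* (ENSMUSG00000049327, chromosome 5, 124439930 to 124462308), which encodes a histone methyltransferase. Its level was 78.1, 69.5, 60.1 and 62.8 CPM in untreated WT, 155, 186, 206 and 132 CPM in WT + TAM, 44, 56.7, 52.8 and 51.2 CPM in Mtm1-/y and 74.9, 71.8 and 77.8 CPM in Mtm1-/y + TAM libraries. Treated values were above untreated ones in each genotype without overlap, and the rise was larger in WT. It was 2.51-fold in WT and 1.46-fold in Mtm1-/y mice, with an average log2 fold change of 0.94 (SE 0.09, edgeR adjusted p 0.000637). The effect in the mutant minus that in WT was -0.78 (interval -1.18 to -0.37, edgeR adjusted p 0.3). *Zfp710*, a zinc finger gene, moved by nearly the same amount in each genotype, 0.63 (SE 0.14) in WT and 0.58 (SE 0.15) in Mtm1-/y mice. Its 4 WT + TAM libraries held 34.3 to 50.9 CPM against 25.7 to 31.4 CPM in untreated WT, and its 3 Mtm1-/y + TAM libraries 26.6 to 31.7 CPM against 14.4 to 23.1 CPM in Mtm1-/y. The average of 0.60 had an edgeR adjusted p of 0.0241. *Zfp469*, annotated as a non-coding RNA in the GENCODE release used, had 0.763, 0.553, 0.487 and 0.968 CPM in untreated WT, 3.31, 2.14, 1.71 and 2.36 CPM in WT + TAM, 0.942, 0.807, 0.54 and 0.694 CPM in Mtm1-/y and 0.954, 1.22 and 1.81 CPM in Mtm1-/y + TAM libraries. It rose by 1.30 on the log2 scale (SE 0.21, edgeR adjusted p 0.0173), with the lowest treated mutant just above the highest untreated one.

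Genes of membrane transport and signalling were a further group. *Slc4a4*, which encodes a sodium bicarbonate cotransporter for pH control, had the most equal effects of the called genes, 0.78 (SE 0.19) in WT and 0.77 (SE 0.21) in Mtm1-/y mice. It measured 17.8, 14.3, 16.8 and 13.4 CPM in untreated WT, 23.6, 25.7, 38.8 and 18.6 CPM in WT + TAM, 4.45, 5.08, 5.31 and 5.42 CPM in Mtm1-/y and 7.42, 7.44 and 11 CPM in Mtm1-/y + TAM libraries. Levels in the mutant were lower throughout, and treated libraries were higher in each genotype without overlap (average edgeR adjusted p 0.038). The interval of the difference between genotypes was -0.64 to 0.63. *Cmklr1*, the chemerin receptor gene, rose from 3.67 to 4.74 CPM in WT to 5.38 to 7.81 CPM in WT + TAM, and from 3.64 to 4.14 CPM in Mtm1-/y to 4.93 to 8 CPM in Mtm1-/y + TAM libraries (average 0.68, SE 0.12, edgeR adjusted p 0.027). *Atp9a*, a phospholipid flippase gene, had 34.3 to 41.2 CPM in untreated WT, 56 to 104 CPM in WT + TAM, 51.6 to 56.7 CPM in Mtm1-/y and 58.7 to 83.2 CPM in Mtm1-/y + TAM libraries (average 0.63, SE 0.12, edgeR adjusted p 0.0485). *Rasl11b*, of the Ras-like small GTPases, rose by 0.82 (SE 0.16, edgeR adjusted p 0.0485), from 1.85 to 2.66 CPM in WT to 3.11 to 5.87 CPM and from 1.21 to 1.86 CPM in Mtm1-/y to 2.23 to 2.97 CPM. Of the 15 fits that left out a library, *Slc4a4* was called in 4, *Cmklr1* in 5, *Atp9a* in 4 and *Rasl11b* in 3.

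The largest decrease among the called genes was that of *Atp13a5* (ENSMUSG00000048939, chromosome 16, 29231851 to 29378732), which encodes a P-type transport ATPase. It measured 34.2, 10.2, 10.6 and 12 CPM in the WT mice and 3.6, 2.45, 1.81 and 3.7 CPM in WT + TAM libraries. The Mtm1-/y libraries had 4.94, 8.47, 15.2 and 8.02 CPM and the Mtm1-/y + TAM libraries 3.39, 4.02 and 2.06 CPM. WT replicate 1 was well above the other WT libraries, and every treated library was below every untreated one. The average log2 fold change was -2.04 (SE 0.34, edgeR adjusted p 0.0284), and the call was kept in 7 of the 15 fits that left out a library. *Cuedc1*, which encodes a ubiquitin-binding CUE domain protein, fell by 0.55 on the log2 scale in WT (SE 0.11) and by 0.43 in Mtm1-/y mice (SE 0.12), with an interval of the difference of -0.21 to 0.45. Its libraries had 156, 145, 136 and 149 CPM in untreated WT, 94.3, 91.4, 104 and 110 CPM in WT + TAM, 113, 155, 163 and 149 CPM in Mtm1-/y and 110, 110 and 101 CPM in Mtm1-/y + TAM mice. The lowest untreated mutant was close to the treated ones (average edgeR adjusted p 0.0172). *Rpn1* encodes ribophorin, a subunit of the oligosaccharyltransferase of the endoplasmic reticulum. It was 89.5, 79.6, 77.5 and 67.2 CPM in untreated WT, 48.2, 60.1, 51.2 and 57.8 CPM in WT + TAM, 81.4, 78, 86 and 75.4 CPM in Mtm1-/y and 68.4, 72.6 and 62.7 CPM in Mtm1-/y + TAM libraries, an average change of -0.39 (SE 0.07, edgeR adjusted p 0.0456).

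**Figure D3:**
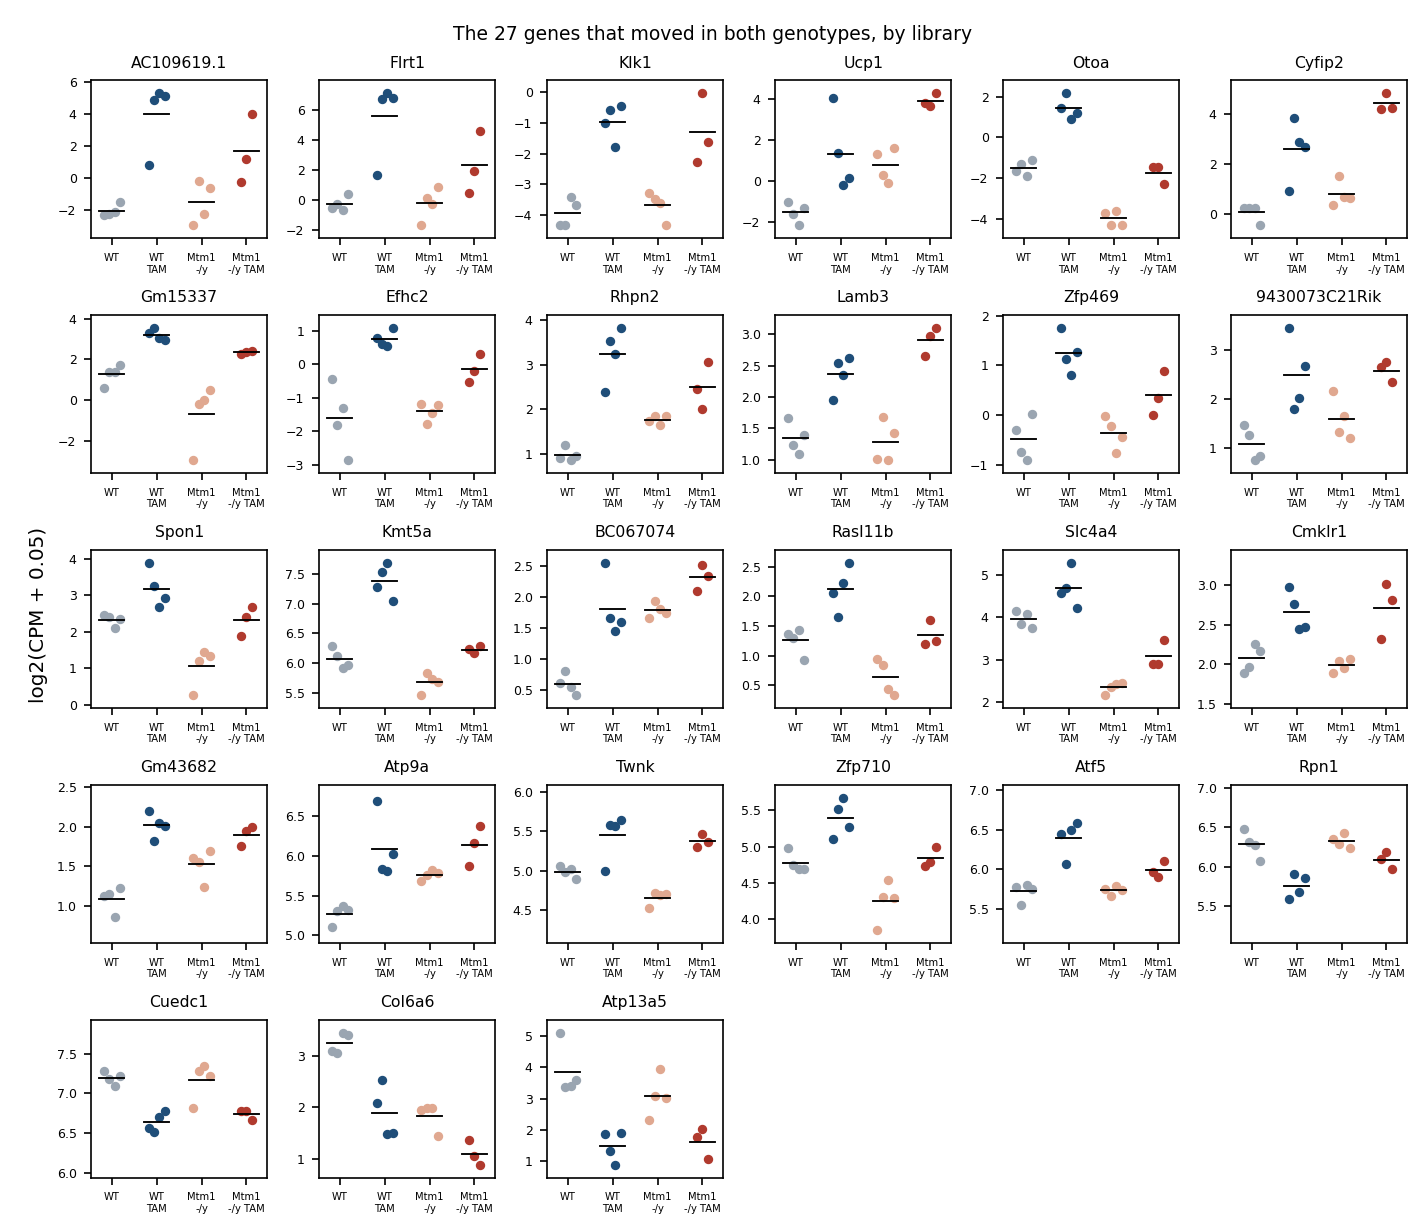
Each panel shows 1 of the 27 genes that moved in both genotypes, ordered from the highest to the lowest average effect, as log2(CPM + 0.05) in each library (points) with the group mean (line) for WT, WT + TAM, Mtm1-/y and Mtm1-/y + TAM. In 24 of the 27 panels the treated and untreated points of neither genotype overlap, and in *Twnk*, *Flrt1* and *AC109619.1* they overlap in 1 genotype.

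Genes that were barely read in untreated muscle also rose, and their folds rest on few counts. *Klk1* (ENSMUSG00000063903) encodes tissue kallikrein, a serine protease that releases kinins. It had 2 counts over the 4 WT libraries and 51 over the 4 WT + TAM libraries, a ratio of 28 after scaling for depth (95% counting interval 7.36 to 237). Over the mutants it had 4 counts untreated and 49 treated, a ratio of 17.7 (6.49 to 67.5). Its levels were 0, 0, 0.0443 and 0.0293 CPM in untreated WT, 0.45, 0.612, 0.241 and 0.686 CPM in WT + TAM, 0.0523, 0.0403, 0.0318 and 0 CPM in Mtm1-/y and 0.159, 0.927 and 0.277 CPM in Mtm1-/y + TAM libraries. All treated libraries were above all untreated ones (edgeR adjusted p 0.00504). Untreated libraries held at most 2 counts each, so *Klk1* passed the count filter (minimum count 10) through treated libraries alone. Its p and ratios are therefore descriptions. *Klk1* belongs to a family of closely related genes on chromosome 7, among which the counting could have split reads. Its relatives *Klk1b26* and *Klk1b22* were tested and not called, at 0.79 and -0.13 on the log2 scale.

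*Otoa*, which encodes otoancorin, a protein of the inner ear, measured 0.271, 0.356, 0.221 and 0.411 CPM in the WT mice and 2.66, 4.49, 1.86 and 2.29 CPM in WT + TAM libraries. It was at 0.0262, 0, 0.0318 and 0 CPM in Mtm1-/y and at 0.318, 0.318 and 0.151 CPM in Mtm1-/y + TAM libraries. The treated mutants lay at 0.151 to 0.318 CPM, in or below the range of untreated WT libraries. The ratio was 8.16 in WT (5.83 to 11.7, from 39 and 290 counts) and 17.3 in the mutant (4.3 to 151, from 2 and 24 counts), and these intervals cover counting error only. The average had an edgeR adjusted p of 0.000762. *Efhc2*, an EF-hand protein gene on chromosome X, had 0.088 to 0.689 CPM in untreated WT, 1.4 to 2.06 CPM in WT + TAM, 0.242 to 0.392 CPM in Mtm1-/y and 0.636 to 1.18 CPM in Mtm1-/y + TAM libraries (average 1.81, SE 0.30, edgeR adjusted p 0.0176). *Spock1*, a proteoglycan gene, was called on average (edgeR adjusted p 0.0476) with 0 counts over WT and 87 over WT + TAM libraries, at least 25.3-fold higher by the lower bound of the exact 95% counting interval (31.8-fold against a floor of 3 counts over the group). In the mutants it had 1 count untreated and 4 treated, a ratio of 5.78 with an interval of 0.572 to 284, and it did not count as moved in both. *Spock1* passed the count filter through the WT + TAM libraries alone, so its call and fold describe the values that let it be tested. Of the 15 fits that left out a library, *Spock1* was called in 2.

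Many but not all nuclear receptors bind DNA at the hexamer AGGTCA, and the oestrogen receptor dimer at pairs of it with opposite orientation, GGTCANNNTGACC. Both were searched on both strands in the 250 bases before each RefSeq gene start (GRCm38.p6), a window found for 22 of the 32 called genes. The palindrome was in none of the 22 genes, and in 18 of 27025 genes overall (0.0666%). The hexamer was in 6 of the 22, namely *Cyfip2*, *Klk1*, *Kmt5a*, *Slc4a4*, *Twnk* and *Ucp1*, beside 15.8% of all genes. Windows are shown for genes with large or firm effects whose window held no annotated exon, with the hexamer in capitals on either strand, so that it reads AGGTCA or TGACCT. *Klk1* held 3 copies, which begin 206, 187 and 109 bases before the start, and *Ucp1* held 1, which begins 14 bases before it. The window of the first *Kmt5a* start and that of *Atp13a5*, the gene with the largest decrease, held none.
*Klk1*, chr7:44225110-44225359, plus strand: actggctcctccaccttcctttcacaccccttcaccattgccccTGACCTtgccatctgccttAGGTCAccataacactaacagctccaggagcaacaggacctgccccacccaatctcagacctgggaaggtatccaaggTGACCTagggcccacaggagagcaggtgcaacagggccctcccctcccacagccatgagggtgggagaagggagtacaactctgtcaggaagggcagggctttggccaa
*Ucp1*, chr8:83290098-83290347, plus strand: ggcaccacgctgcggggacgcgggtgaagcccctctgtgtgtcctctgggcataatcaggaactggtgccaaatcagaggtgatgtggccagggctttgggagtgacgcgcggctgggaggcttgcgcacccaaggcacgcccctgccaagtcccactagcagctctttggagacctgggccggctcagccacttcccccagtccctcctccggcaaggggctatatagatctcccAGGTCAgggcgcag
*Kmt5a*, chr5:124439680-124439929, plus strand: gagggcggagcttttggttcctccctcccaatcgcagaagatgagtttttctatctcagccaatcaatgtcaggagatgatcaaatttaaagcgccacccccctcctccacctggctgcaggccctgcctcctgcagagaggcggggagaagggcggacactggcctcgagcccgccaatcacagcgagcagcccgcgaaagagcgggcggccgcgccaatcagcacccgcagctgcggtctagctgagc
*Atp13a5*, chr16:29378733-29378982, minus strand: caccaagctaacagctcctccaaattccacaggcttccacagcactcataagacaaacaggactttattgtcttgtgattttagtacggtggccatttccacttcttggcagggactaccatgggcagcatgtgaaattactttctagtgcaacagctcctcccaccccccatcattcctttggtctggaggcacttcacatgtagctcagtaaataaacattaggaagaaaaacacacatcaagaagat
A match describes the letters alone, and which start was used in muscle was not measured by counts per gene.

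Transcripts whose names give no product formed a further group. *Gm15337*, antisense within *Arhgap26* on chromosome 18, rose from 1.45, 2.57, 2.57 and 3.23 CPM in WT to 9.93, 11.6, 8.16 and 7.82 CPM in WT + TAM libraries, and from 0.0785, 0.807, 0.953 and 1.34 CPM in Mtm1-/y to 4.77, 5.16 and 5.29 CPM in Mtm1-/y + TAM libraries. Both rises were without overlap, and the lowest value was that of Mtm1-/y replicate 1. The average log2 fold change was 2.30 (SE 0.31, edgeR adjusted p 0.00508), and without the 2 libraries that stood apart it was 2.08. *Arhgap26* itself was not called (-0.27, adjusted p 0.978, edgeR). *9430073C21Rik*, antisense to the fast myosin gene *Myh2*, had 2.73, 2.37, 1.64 and 1.73 CPM in untreated WT, 10.8, 3.42, 3.98 and 6.33 CPM in WT + TAM, 4.39, 2.46, 3.08 and 2.26 CPM in Mtm1-/y and 6.2, 6.65 and 5.01 CPM in Mtm1-/y + TAM libraries (average 1.24, SE 0.24). *Myh2* had an average effect of 0.60 that was not called (edgeR adjusted p 0.876). Libraries were stranded, but no source used here states whether the counting used strand, so reads of overlapping antisense partners may not be separated. *AC157910.6*, antisense within *Alpk2* on chromosome 18, was called on average (1.16, SE 0.19, edgeR adjusted p 0.0173) but had an unadjusted p of 0.0509 in Mtm1-/y mice. That p was 0.0304 without the 2 libraries that stood apart, and *AC157910.6* then counted as moved in both. *Gm43682*, 523 bases past the end of *Sept11* on the same strand, moved with it (0.66, SE 0.11, edgeR adjusted p 0.0176). *BC067074*, which is annotated as protein-coding, rose from 1.48, 1.7, 1.42 and 1.29 CPM in WT to 5.8, 3.11, 2.68 and 2.97 CPM in WT + TAM, and from 3.11, 3.79, 3.43 and 3.31 CPM in Mtm1-/y to 4.24, 5.64 and 5.01 CPM in Mtm1-/y + TAM libraries (average 0.93, SE 0.16, edgeR adjusted p 0.0239).

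Genes of oestrogen receptors, their cofactors and known oestrogen targets were examined as 1 list of 15 tested genes, and none was called (unadjusted p under 0.05 for 2 higher and 2 lower). *Esr1* itself had 24.6 to 29.2 CPM in untreated WT, 24.2 to 29.4 CPM in WT + TAM, 11.4 to 20.6 CPM in Mtm1-/y and 16.4 to 18.6 CPM in Mtm1-/y + TAM libraries, with an average effect of 0.03 (SE 0.10, edgeR adjusted p 0.993). *Greb1*, a coactivator gene induced by oestrogen in breast cells, had an average of 0.61 (SE 0.18, edgeR adjusted p 0.324). Its treated mutants, at 1.64 to 1.96 CPM, lay above the untreated ones at 0.759 to 1.37 CPM, whereas WT libraries at 1.62 to 2.51 and WT + TAM libraries at 1.76 to 3.52 CPM overlapped. *Xbp1*, a transcription factor gene of the unfolded protein response, came nearest to a call (0.53, edgeR adjusted p 0.0788), with 40.5 to 50.4 CPM in untreated WT, 52.8 to 99.6 CPM in WT + TAM, 71.6 to 85.5 CPM in Mtm1-/y and 82.8 to 97.6 CPM in Mtm1-/y + TAM libraries. *Xbp1* was called without the 2 libraries that stood apart (0.59, edgeR adjusted p 0.000273), with effects of 0.99 in WT and 0.18 in Mtm1-/y mice (unadjusted p 0.0762 in the latter), and did not count as moved in both. The progesterone receptor gene *Pgr*, a classic target that was under the count filter, had 2, 0, 0 and 0 counts in WT and 5, 17, 7 and 7 in WT + TAM libraries. It had 0 counts in each of the 4 Mtm1-/y libraries and 0, 7 and 5 in the Mtm1-/y + TAM libraries. With libraries exchanged within genotype, the average difference of 0.234 CPM had an exact two-sided permutation p of 0.00204, where 0.000408 was the smallest that 2450 arrangements could give.

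Of 41 lists of pathway genes and cell type markers, 4 held a called gene, and each held 1. Besides *Lamb3*, *Cyfip2* and *Ucp1* this was *Flrt1* in the list of FLRT proteins and their receptors (9 tested). A called gene was held by 12 lists without the 2 libraries that stood apart, 13 genes in all, in a fit that called 0.833% of all tested genes. Beyond the genes described here these included *Sln*, *Nr1d1*, *Amd1*, *Tph1*, *Ifi44* and *H2-K1*, of which *Sln*, the sarcolipin gene (0.65, edgeR adjusted p 0.00915), and *Nr1d1*, a clock repressor gene (0.31, edgeR adjusted p 0.0463), moved in both. With all 15 libraries the averages were 0.07 for *Sln* (edgeR adjusted p 0.995) and 0.22 for *Nr1d1* (edgeR adjusted p 0.684). For *Sln* the omitted Mtm1-/y replicate 1 had 1750 CPM, against 301 to 359 CPM in the other untreated mutants. Unadjusted p values under 0.05 were seen for 3.76% of all tested genes in the higher direction and 2.88% in the lower one. An average effect above 0 was seen for 48.3% of all tested genes.

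The slow fibre list was the pathway list with the highest median. All 14 of its tested genes had an average effect above 0 and 9 an unadjusted p under 0.05, with a median of 1.08, and none was called (smallest adjusted p 0.307, edgeR). *Myh7*, the slow myosin heavy chain gene, measured 2.8, 1.9, 1.46 and 2.64 CPM in the WT mice and 439, 3.42, 1.45 and 3.7 CPM in WT + TAM libraries. In the mutant it measured 4.66, 4.19, 4.58 and 3.09 CPM untreated and 4.61, 26 and 37.7 CPM treated. WT + TAM replicate 1 alone held the high WT value, and Mtm1-/y + TAM replicate 1 stayed in the untreated range. *Tnni1*, of the slow troponin complex, had 79.3 CPM in WT + TAM replicate 1 against 1.71 to 4.74 CPM in the other WT + TAM and 1.58 to 2.52 CPM in the WT libraries. Its Mtm1-/y libraries had 11.7 to 17.3 CPM and its Mtm1-/y + TAM libraries 14.6, 41.8 and 19.2 CPM. The median of the list was 0.60 without WT + TAM replicate 1 and 0.57 without the 2 libraries that stood apart. In the latter fit 13 genes were above 0 and 6 had an unadjusted p under 0.05. Of the fast fibre list, 4 of 14 genes were above 0 and none was called (unadjusted p under 0.05 for 1 higher and 2 lower), with a median of -0.03.

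The macrophage, blood, interferon, antigen presentation and B cell lists held no called gene with all 15 libraries, and *Ifi44* and *H2-K1* were called without the 2 that stood apart. Of 15 macrophage markers, 14 were above 0 and 5 had an unadjusted p under 0.05, with a median of 0.63 that stayed between 0.48 and 0.75 when any 1 library was left out. Without the 2 libraries that stood apart 13 were above 0 and 2 had an unadjusted p under 0.05. *Cd163*, a macrophage scavenger receptor gene, had 2.09 to 3.41 CPM in untreated WT, 2.92 to 5.27 CPM in WT + TAM, 3.06 to 5.77 CPM in Mtm1-/y and 4.61 to 8.37 CPM in Mtm1-/y + TAM libraries, which overlapped in each genotype. The summed level of the 15 markers was 32.6 to 58.8 CPM in untreated WT, 48.4 to 73.9 CPM in WT + TAM, 41 to 105 CPM in Mtm1-/y and 76.9 to 132 CPM in Mtm1-/y + TAM libraries. All 5 tested blood genes were above 0 with an unadjusted p under 0.05 and a median of 0.73, and *Hbb-bs*, a beta globin gene, had 47.3 to 66.3, 52.8 to 132, 9.83 to 44.8 and 33.5 to 75.7 CPM in untreated WT, WT + TAM, Mtm1-/y and Mtm1-/y + TAM libraries. All 14 interferon response genes (median 0.37, 4 with an unadjusted p under 0.05) and all 13 antigen presentation genes (0.33, 3) were above 0. The summed level of the B cell and immunoglobulin markers went the other way in WT, though the median effect of the 7 tested markers in WT was 0.31. This sum was 55.3 to 76.1 CPM in untreated WT and 6.09 to 17.4 CPM in WT + TAM libraries, without overlap, but 1.8 to 8 CPM in Mtm1-/y and 3.5 to 7.45 CPM in Mtm1-/y + TAM libraries, which overlapped. *Ighm*, the immunoglobulin heavy chain gene of IgM, made up most of this sum in untreated WT, with 52.4 to 71.6 CPM in untreated WT and 2.33 to 9.28 CPM in WT + TAM libraries. It fell in WT (-3.77, SE 0.62, edgeR adjusted p 0.0296), had an effect of 0.41 (SE 0.69) in Mtm1-/y mice, and was not called on average (-1.68, edgeR adjusted p 0.307). It was the only one of the 7 tested B cell genes with an unadjusted p under 0.05 for the average, and the median of the 7 was 0.25. The part of these cell types in the called genes was not tested.

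Other lists had opposite medians in the 2 genotypes, so that the average was near 0. For androgen and glucocorticoid response genes the median was 0.85 in WT and -0.71 in Mtm1-/y mice, for atrophy genes 0.52 and -0.26, and for immediate early genes 0.45 and -0.34. Whether a list differed between the genotypes was not tested.

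**Figure D4:**
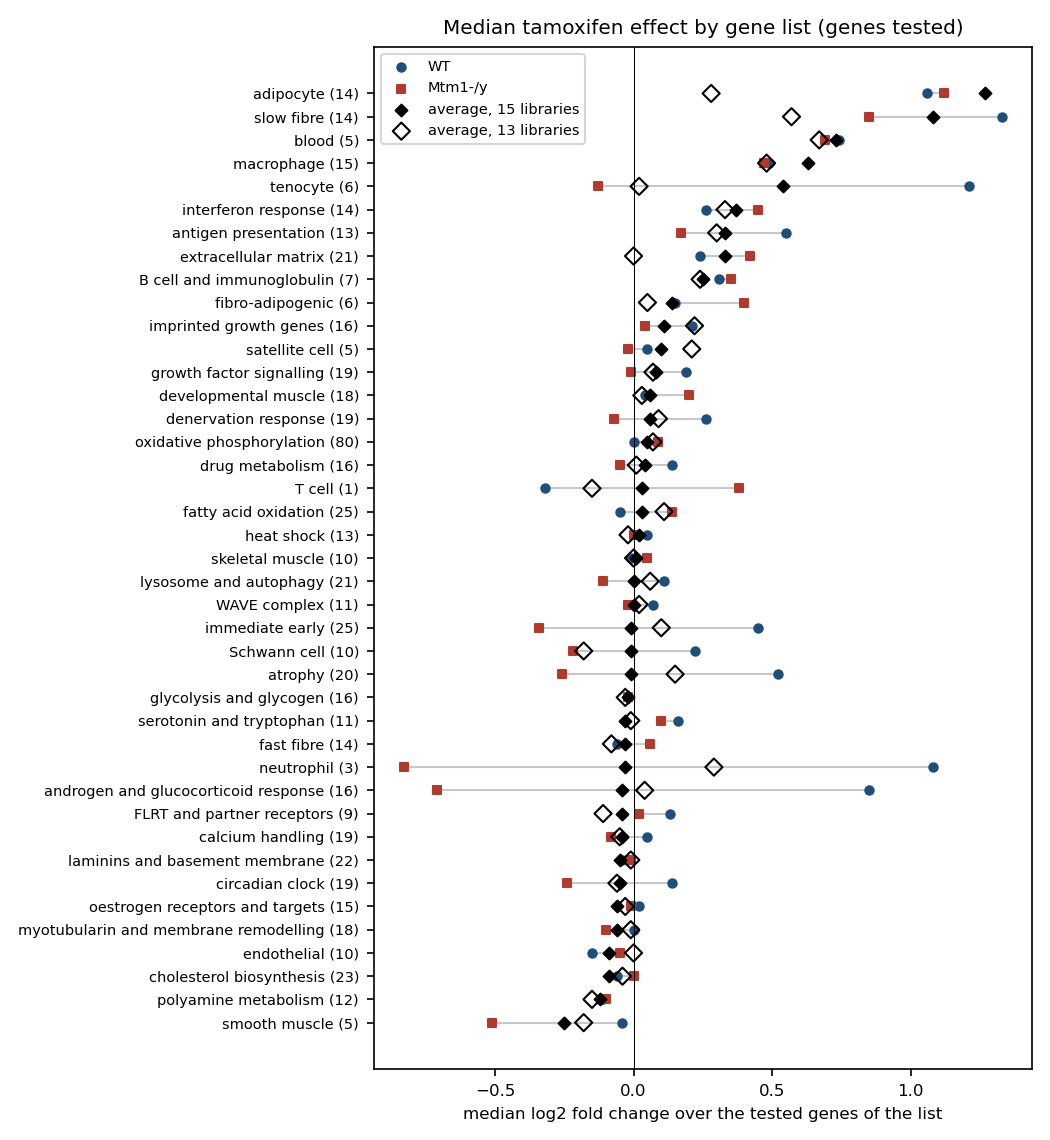
Median log2 fold change with tamoxifen over the tested genes of each of the 41 lists (number of tested genes in brackets), in WT (blue circles), in Mtm1-/y mice (red squares), as the average over 15 libraries (filled diamonds) and as the average over the 13 libraries that remain once WT + TAM replicate 1 and replicate 1 of Mtm1-/y are omitted (open diamonds). The adipocyte median fell from 1.27 to 0.28 and the slow fibre median from 1.08 to 0.57 between these averages, while the macrophage and blood medians were 0.48 and 0.67 over 13 libraries.

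Without the 2 libraries that stood apart more genes were called. Fitted effects had the same sign in the 2 genotypes for 46.7% of tested genes, against 43.2% with all 15 libraries. Of 15359 tested genes, the average effect was called for 128 (percent called 0.833, 83 higher and 45 lower), which included all 32 of the genes above. In this fit 81 genes moved in both genotypes, which included all 27. Leaving out the least typical library of a group lowers the spread on which the test rests, so this count is not independent of that choice. Of the 96 additional genes, 95 had the same sign with all 15 libraries and 77 an unadjusted p under 0.05 there. This is a description, since the 15 libraries include the 13 that chose these genes. The genes named next are the 6 highest and 6 lowest of the additional genes that moved in both genotypes and had a mean log2 CPM of 0 or more, a rule set after the values were seen. Values in the next paragraphs are those of the 13 libraries. Those of the omitted WT + TAM replicate 1 and Mtm1-/y replicate 1, in that order, and the averages over all 15 libraries follow them.

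*Gpx3*, the gene of the secreted glutathione peroxidase, had 50.7, 53.2, 59.5 and 53.3 CPM in untreated WT, 217, 211 and 161 CPM in WT + TAM, 20.8, 15 and 19.9 CPM in Mtm1-/y and 43.9, 30.5 and 66.5 CPM in Mtm1-/y + TAM libraries. The omitted libraries had 234 CPM (WT + TAM replicate 1) and 62.1 CPM (Mtm1-/y replicate 1), so in this gene only the untreated mutant went against its group. The log2 fold change was 1.60 (SE 0.16, edgeR adjusted p 0.000433) and was 1.30 (adjusted p 0.108) with all 15 libraries. *Ak4*, a mitochondrial adenylate kinase gene, had 3.65 to 4.86 CPM in untreated WT, 9.47 to 14.1 CPM in WT + TAM, 2.75 to 3.49 CPM in Mtm1-/y and 4.32 to 4.48 CPM in Mtm1-/y + TAM libraries (0.98, SE 0.12, edgeR adjusted p 0.000433). The omitted treated library, at 4.13 CPM, was at the untreated level, and the omitted untreated mutant had 1.12 CPM. With all 15 libraries the average of *Ak4* was 0.98 (edgeR adjusted p 0.199). *Ccdc125*, a coiled-coil protein gene, rose from 0.589 to 1.19 CPM to 3.33 to 3.86 CPM in the WT mice and from 0.321 to 0.801 CPM to 1.08 to 1.95 CPM in the mutant (1.78, SE 0.23, edgeR adjusted p 0.000932). Its omitted libraries had 0.695 CPM, at the untreated level, and 0.34 CPM, and the average over all 15 was 1.70 (edgeR adjusted p 0.0602). *Stum*, *Alx4*, which encodes a homeobox factor, and the antisense transcript *AC157910.1* rose by 1.54, 1.38 and 1.28. Their omitted libraries had 5.4 and 1.65, 6.62 and 0.209, and 3.15 and 11.9 CPM. For *AC157910.1* the omitted untreated mutant thus lay above the treated mutants, at 4.84 to 6.01 CPM. With all 15 libraries the averages were 1.45, 2.02 and 1.03 (edgeR adjusted p 0.0829, 0.129 and 0.297).

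Among the additional genes that fell, *Smox* encodes spermine oxidase, which breaks down polyamines in the cell. It had 295, 152, 133 and 122 CPM in untreated WT, 29, 47.8 and 41.4 CPM in WT + TAM, 55.9, 94.5 and 45.6 CPM in Mtm1-/y and 33.1, 37.7 and 26 CPM in Mtm1-/y + TAM libraries, with 84 and 34.8 CPM in the omitted ones. In the 13 libraries treated values were lower without overlap in each genotype, from a lower untreated level in the mutant (-1.59, SE 0.27, edgeR adjusted p 0.0245). The omitted Mtm1-/y replicate 1, at 34.8 CPM, lay in the treated range, and the average over all 15 libraries was -1.32 (edgeR adjusted p 0.123). *C7*, of the terminal complement pathway, had 4.18, 1.49, 2.29 and 2.71 CPM in WT against 0.101, 0.048 and 0.114 CPM in WT + TAM libraries. In the mutant it had 2.57, 3.12 and 1.62 CPM untreated and 1.11, 1.42 and 0.225 CPM treated (average -3.22, SE 0.45, edgeR adjusted p 0.00401), and the omitted libraries had 0.94 and 0.889 CPM. With all 15 libraries the average of *C7* was -2.20 (edgeR adjusted p 0.195). *Cacnb3*, a calcium channel beta subunit gene, had effects of -0.83 in WT and -0.77 in Mtm1-/y mice, from 3.56 to 4.2 and 3.67 to 3.69 CPM to 1.93 to 2.53 and 1.79 to 2.39 CPM. Both omitted libraries went against this. WT + TAM replicate 1 had 4.5 CPM, above every untreated WT library, and Mtm1-/y replicate 1 had 1.99 CPM, in the treated range. With all 15 libraries the average of *Cacnb3* was -0.55 (edgeR adjusted p 0.473). *Dtnb*, which encodes beta-dystrobrevin of the dystrophin-associated protein family, had effects of -0.99 and -0.93. Its omitted libraries had 2.78 and 1.78 CPM, and the average over all 15 was -0.87 (edgeR adjusted p 0.255). *Mchr1*, the receptor gene of melanin-concentrating hormone, and *Hrasls*, a phospholipase and acyltransferase gene that lies 1320 bases from *Atp13a5*, had averages of -1.32 and -0.73. Their omitted libraries had 3.6 and 0.706, and 42.1 and 13.1 CPM. For *Hrasls* the omitted untreated mutant thus lay below the treated mutants, at 21.8 to 30.2 CPM. With all 15 libraries the averages were -1.03 and -0.55 (edgeR adjusted p 0.297 and 0.445).

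**Figure D5:**
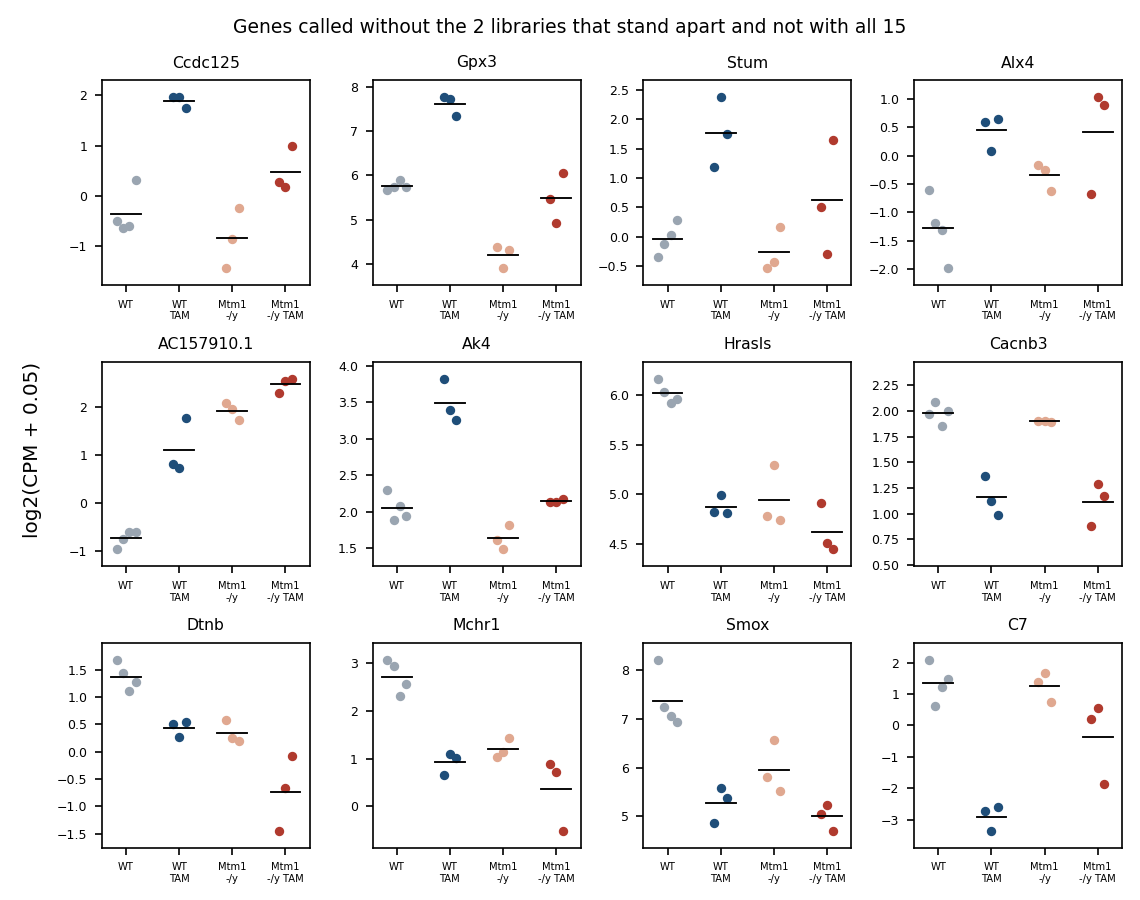
Each panel shows log2(CPM + 0.05) in each of the 13 libraries left (points) with the group mean (line), for the 6 highest and 6 lowest of the additional genes that moved in both genotypes. *Gpx3*, *Ak4*, *Smox* and *Cacnb3* show treated and untreated points without overlap in each genotype, and the untreated levels of *Gpx3* and *Smox* are lower in the Mtm1-/y than in the WT libraries shown. In each of these genes an omitted library, which is not shown, overlapped the opposite group of its genotype. For *Gpx3* the omitted Mtm1-/y replicate 1, at 62.1 CPM, was also above every untreated WT library (at most 59.5 CPM).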

How the data were processed

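Poly(A) RNA of the tibialis anterior was sequenced from stranded libraries in 15 mice, and samples were grouped from the labels alone. The authors deposited 1 table of unnormalized read counts, whole numbers for each Ensembl gene in each mouse. HTSeq 0.6.1p1, STAR 2.5.3a, Bowtie2 2.2.8 and cutadapt 1.10 are named in the submitters' processing notes, with GRCm38, and no source used here gives their roles or whether the counting used strand. Symbols, coordinates and gene types came from GENCODE release M21 for GRCm38, which matched 30672 of 30672 identifiers, and promoter windows from RefSeq.

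The test was that of edgeR 4.0.16 (R 4.3.3), applied to the counts as deposited. Low genes were removed with filterByExpr (minimum count 10), TMM factors scaled the libraries, and a quasi-likelihood model with 4 group means (robust) was fitted to all 15 libraries. The average of both tamoxifen effects, each effect and their difference were tested, with Benjamini-Hochberg adjustment over 15533 genes at 0.05. Intervals of differences are 95% intervals of the fit. Ratios of low counts have exact counting intervals, and a count of 0 allows up to 3 counts, both for counting error only. *Pgr*, under the filter, was tested by exact permutation. The labels do not name litters or batches, so p-values measure the spread between these mice. The steps were tested on simulated counts.

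The rule for named genes took up to 12 highest and 12 lowest average effects among called genes that moved in both genotypes at a mean log2 CPM of at least 0, called genes of the 41 lists, the 3 called genes with the smallest p for a difference between genotypes, and *Mtm1*, *Esr1*, *Pgr* and *Greb1*. The members and lists were chosen with earlier results of these data known, so list counts are descriptions. Alternatives were other scaling factors (relative log expression, RLE, and upper-quartile), no filter, a stricter filter (1 CPM in 7 libraries), DESeq2 1.42.0, limma-voom 3.58.1, a replicate block, an additive model, an absolute log2 fold change over 1, and leaving out libraries. Reads were not analysed here.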

Additional observations from a re-analysis of the deposited data

Results flagged for a closer look

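Of 105 groups of 4 libraries (35 named genes), 9 held a library whose gap to its nearest neighbour exceeded Dixon's 95% critical value as a share of the range of the group, and chance flags about 1 in 20 groups. In WT + TAM replicate 1, *Ucp1* was at 16.4 CPM with the next library at 2.55, *BC067074* at 5.8 CPM with the next at 3.11, and *Twnk* at 31.8 CPM with the next at 47.4. In Mtm1-/y replicate 1, *Twnk* was at 23.1 CPM with the next at 25.8. The remaining flagged libraries were scattered. *Atp13a5* was at 34.2 CPM in WT replicate 1 (next 12), *Cyfip2* at 0.675 CPM in WT replicate 4 (next 1.11) and *Col6a6* at 2.67 CPM in Mtm1-/y replicate 4 (next 3.79). *Spock1* was at 1.48 CPM in WT + TAM replicate 2 (next 0.648) and at 0.0224 CPM, which is 1 count, in Mtm1-/y replicate 4 (next 0).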

How the results depend on the processing

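Over 24 alternatives, the 32 genes gave 762 values, of which 550 were on the same side of the threshold, 212 lost the call and 0 reversed. In every alternative that gave them a value, 8 genes were called. Of these, *Otoa* and *Klk1* had values in 8 alternatives besides the fits that left out 1 library, against 9 for the others. The average effect was called for 28 genes with RLE factors, 30 with upper-quartile factors, 38 without a filter, 25 with the stricter filter, 23 with limma-voom and 25 in the additive model. DESeq2 called 119 for the average, 298 in WT, 4 in Mtm1-/y mice and 74 for the difference between genotypes, with 70 moved in both. Without the 2 libraries that stood apart these counts were 128, 347, 7, 14 and 81. Without a filter 1 gene was called in Mtm1-/y mice and 2 for the difference, and an absolute log2 fold change over 1 left 18 genes. The cause was not tested. When a library was left out, the counts ran from 10 to 71 for the average, from 11 to 143 in WT, from 0 to 5 in Mtm1-/y mice, from 0 to 7 for the difference and from 7 to 48 for genes moved in both, and the exact p for *Pgr* from 0.000952 to 0.0122. Fits without WT + TAM replicate 1 gave the upper and fits without Mtm1-/y + TAM replicate 3 the lower end for the average. With the replicate number as a block, 28 genes were called for the average, 33 in WT and 2 in Mtm1-/y mice, with 24 moved in both. Libraries with the same number deviated together with correlations of -0.113 to 0.306 over 21 pairs, 6 of them over 0.1, and 5 of 15 libraries correlated best with their own number in another group, so the numbers were not taken to pair the samples. *Klk1*, *Otoa* and *Spock1* rest on few counts, and their ratios have wide counting intervals.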
